A study of Oncorhynchus mykiss with 12 samples.

Results

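The Jun and Fos genes encode the subunits of AP-1, a transcription factor built as a dimer of basic leucine zipper proteins. They were examined here in RNA-Seq of dorsal skin from yellow mutant and wild-type rainbow trout (Oncorhynchus mykiss). The members were all rows of the FPKM table whose symbol, ignoring case and a copy ending of a or b, is jun, junb, jund, fos, fosb, fosl1 or fosl2. The rule found 24 rows of 42290, all with an NCBI gene identifier. They were 5 jun, 4 junb and 4 jund rows, together 13 rows of the Jun family, and 5 fos, 2 fosb, 2 fosl1 and 2 fosl2 rows, together 11 rows of the Fos family. The genes are named by symbol and NCBI gene identifier as the table spells them.

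There were 3 yellow mutant and 3 wild-type libraries. Per the series text, the fish of both colours were F1 offspring of a cross of a wild-type male with a yellow mutant female, and no treatment is named. The labels give neither age nor the gene behind the yellow colour, and they do not say whether a library is 1 fish or a pool. The tests below therefore measure only the spread between these libraries, which may be technical.

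As background, Jun proteins pair with each other or with Fos proteins, whereas Fos proteins need a Jun partner to bind DNA. In mammals several of these genes are immediate early genes: stress, wounding or growth factors act through MAP kinases to switch on fos, fosb, jun and junb without new protein synthesis, and their mRNAs decay fast. In mammalian epidermis AP-1 takes part in keratinocyte proliferation, differentiation and inflammation. Salmonid ancestors went through an additional duplication of the whole genome, so many genes are present in more copies than in mammals.

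The libraries held FPKM values, that is fragments scaled to transcript length and to the mapped fragments of the library, so levels can be compared between genes. Absolute depth was not given. Relative depth, read from the steps between low FPKM values, was 1.01, 0.582 and 0.81 in the yellow mutant libraries, against 1, 0.942 and 0.903 in the wild-type libraries, with wild-type library 1 set to 1. For the skin label 1 marker is given here: krt5 100136029, a keratin of basal keratinocytes, stood between 802 and 1550 FPKM over the 6 libraries. Muscle markers were present as well, with sums of 1206 to 3186 FPKM in the yellow mutant and 871 to 2479 FPKM in the wild type. In bulk tissue a smaller share of cells of a type and less RNA per cell cannot be told apart. Reads of near-identical copies may have been split between rows in a way the sources used here do not state, so the values of single copies are less certain than sums over copies.

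In the Jun and Fos rows, the libraries numbered 1 and wild-type library 2 stood apart. Among the 19 rows that entered the test, yellow mutant library 1 was the lowest of all 6 libraries in 17 rows and wild-type library 2 the highest in 17. Over all 27268 rows tested, yellow mutant library 1 was the lowest of 6 in 14.3%. How often wild-type library 2 was the highest over all rows was not computed, so its count has no background. Wild-type library 1 was the lowest of the wild-type libraries in 15 of the 19 rows, against 42.6% of all rows tested. Values without 1 or more of these libraries are therefore given beside some of the results, but not beside all that depend on them.

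All members were lower on average in yellow mutant skin, and none of the differences passed the test across the table. A row entered the test when it reached 0.5 FPKM in at least 3 of the 6 libraries, and 19 of the 24 members did. The other 5, 3 FOS rows and both Fosl1 rows, were below that level. Every tested member reached 0.5 FPKM in libraries of both genotypes. The difference was tested with limma on log2(FPKM + 1), with p-values adjusted over all rows tested, and a call needed an adjusted p under 0.05. No member was called, the smallest limma Benjamini-Hochberg adjusted p being 0.386. Among all rows tested, 9 were called, all higher in the yellow mutant, so the background shares were 0% called lower and 0.033% called higher.

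The direction was the same in every row. All 19 tested members had a lower mean log2 value in the yellow mutant, whereas 47% of all rows tested did, and with no filter on low values all 24 members did. At an unadjusted limma p under 0.05, 6 members were lower and none was higher, beside a background of 2.59% of rows that were lower at that p. In 5 members all 3 yellow mutant values lay under all 3 wild-type values, against 4.92% of all rows tested. The median log2 difference of the tested members was -0.58, set beside 0.01 for all rows tested, with members running between -1.56 and -0.14. The median was -1.44 for the 6 tested Fos rows and -0.52 for the 13 Jun rows. Without yellow mutant library 1 the median over members was -0.40, and without wild-type library 2 it was -0.34. The count of members lower at an unadjusted p under 0.05 was 3 without yellow mutant library 1, beside 4.22% of all rows under the same setting, and 3 without wild-type library 2, beside 1.28%. It was 13 without wild-type library 1, beside 2.21% of all rows, and 14 with relative depth as a covariate, beside 2.98%. Fewer libraries overlap less often over the whole table. The count of members with no overlap was 15 without wild-type library 1, beside 9.82% of all rows under that setting. It was 10 without yellow mutant library 2, beside 10.7%, and 6 without wild-type library 3, beside 10.4%. It stayed at 5 without yellow mutant library 1, beside 13.2%, without yellow mutant library 3, beside 7.42%, and without wild-type library 2, beside 7.19%.

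**Figure D1:**
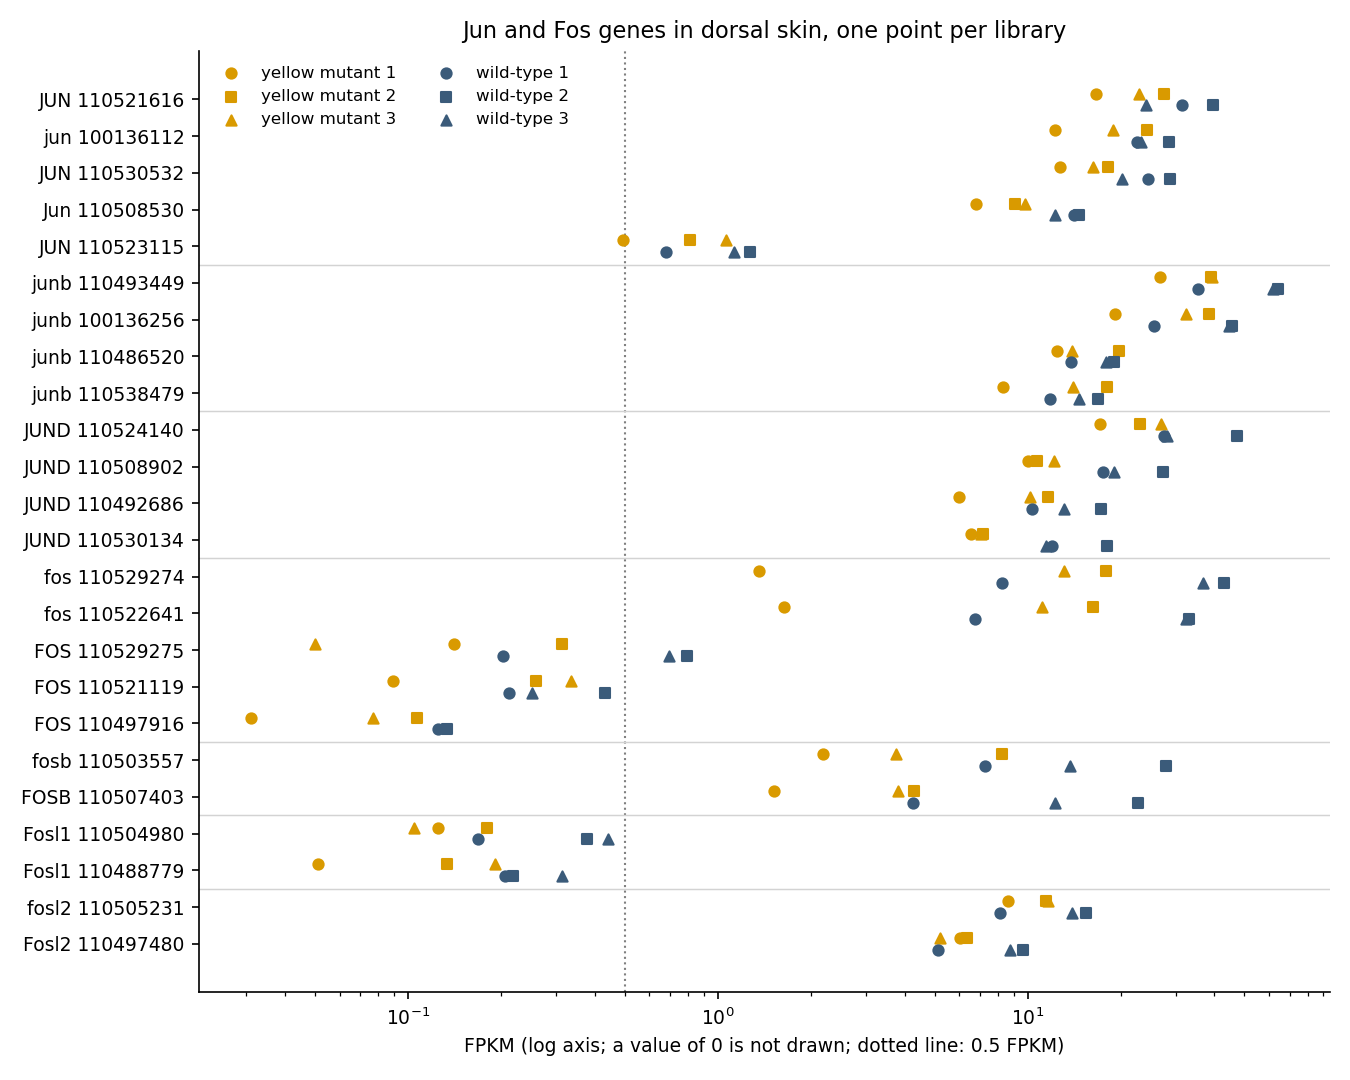
FPKM of the 24 Jun and Fos rows on a log axis, 1 point per library, with yellow mutant libraries in orange above wild-type libraries in blue and the 0.5 FPKM level dotted. Yellow mutant library 1 lies at the left end of most rows, and the fos rows run over the widest range.

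The jund genes encode JunD, the Jun protein that in mammals is made at a fairly steady level in many cells rather than as an immediate early product. Here they held the 2 smallest adjusted p-values of the family. JUND 110530134 had 6.54, 7.17 and 7.06 FPKM in the yellow mutant libraries, against 12, 18 and 11.5 FPKM in the wild-type libraries. The yellow mutant values lay close together, and the groups did not overlap. The difference was -0.88 on the log2(FPKM + 1) scale (SE 0.19, 95% interval -1.31 to -0.45, limma Benjamini-Hochberg adjusted p = 0.386), which ranked 111 by p among the 27268 rows. JUND 110508902 had 10, 10.7 and 12.1 FPKM in the yellow mutant libraries, against 17.5, 27.2 and 18.9 FPKM in the wild-type libraries. Again no yellow mutant value reached the lowest wild-type value, and the mean level was 0.517 times that of the wild type. Its difference was -0.87 on that log2 scale (SE 0.19, limma Benjamini-Hochberg adjusted p = 0.44). Without wild-type library 2, the highest for both, the log2 differences were -0.68 for JUND 110530134 and -0.68 for JUND 110508902.

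The other jund copies leaned the same way with more spread. JUND 110524140, the most abundant jund copy, had 17.1, 23 and 26.9 FPKM in the yellow mutant libraries, against 27.6, 47.2 and 28.1 FPKM in the wild-type libraries. The highest yellow mutant value, in library 3, was just under the lowest wild-type value, and the log2 difference of -0.58 had a 95% interval of -1.18 to 0.02 that reached past 0. JUND 110492686 had 6.02, 11.6 and 10.1 FPKM in the yellow mutant libraries, against 10.3, 17.3 and 13 FPKM in the wild-type libraries. These groups overlapped, since yellow mutant library 2 exceeded wild-type library 1. The log2 difference was -0.52 (limma Benjamini-Hochberg adjusted p = 0.869), or -0.26 without yellow mutant library 1. In the authors' deposited table, the log2 fold change of yellow mutant over wild type was -0.996 with an FDR of 0.00641 for JUND 110530134 and -0.951 with an FDR of 0.0089 for JUND 110508902. These were the 2 members with an FDR under 0.05 in the authors' deposited table, in which 0.0969% of all rows were lower at that level. The labels do not name the test behind that FDR.

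The jun genes encode c-Jun, the founding Jun protein and, in mammals, a substrate of the JNK kinases. Jun 110508530 had 6.8, 9.09 and 9.76 FPKM in the yellow mutant libraries, against 14.1, 14.6 and 12.3 FPKM in the wild-type libraries. The groups were apart, with the highest yellow mutant value in library 3 and the lowest wild-type value also in library 3. The log2 difference was -0.63 (SE 0.17, limma Benjamini-Hochberg adjusted p = 0.588), and it was -0.49 without yellow mutant library 1. JUN 110530532 had 12.7, 18.2 and 16.2 FPKM in the yellow mutant libraries, against 24.5, 28.8 and 20.2 FPKM in the wild-type libraries. This copy did not overlap either, with a log2 difference of -0.61 (limma Benjamini-Hochberg adjusted p = 0.733). JUN 110521616, the most abundant jun copy, had 16.5, 27.5 and 22.9 FPKM in the yellow mutant libraries, against 31.4, 39.5 and 24.1 FPKM in the wild-type libraries. Here yellow mutant library 2 exceeded wild-type library 3. The log2 difference was -0.49 (limma Benjamini-Hochberg adjusted p = 0.868), or -0.29 without yellow mutant library 1.

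A further jun copy of similar level and 1 of low level overlapped between the genotypes. The row jun 100136112 had 12.2, 24.2 and 18.9 FPKM in the yellow mutant libraries, against 22.5, 28.5 and 23.1 FPKM in the wild-type libraries. Yellow mutant library 2 was higher than 2 of the wild-type libraries, and the log2 difference was -0.44 (limma Benjamini-Hochberg adjusted p = 0.882), or -0.19 without yellow mutant library 1. JUN 110523115 was about 1 FPKM, with 0.492, 0.811 and 1.06 FPKM in the yellow mutant, against 0.678, 1.27 and 1.12 FPKM in the wild type. Its log2 difference of -0.18 was close to its SE of 0.18.

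The junb genes encode JunB, which in mammals is an immediate early protein that often opposes c-Jun and that restrains epidermal inflammation. Together they were the most abundant members, and none of the 4 separated the genotypes. The row junb 110493449 had 26.7, 39 and 39.4 FPKM in the yellow mutant libraries, against 35.4, 64.4 and 62 FPKM in the wild-type libraries. Wild-type library 1 was below yellow mutant libraries 2 and 3, and the log2 difference was -0.58 (limma Benjamini-Hochberg adjusted p = 0.859). The row junb 100136256 averaged 30 ± 9.86 FPKM in the yellow mutant and 38.5 ± 11.3 FPKM in the wild type (SD, n = 3 each). Its log2 difference was -0.36 with a 95% interval of -1.10 to 0.37, or -0.08 without yellow mutant library 1. The remaining 2 copies differed least among the tested members. The row junb 110486520 averaged 15.4 ± 3.84 FPKM in the yellow mutant and 16.9 ± 2.71 FPKM in the wild type (SD, n = 3 each). Its log2 difference was -0.14 with a 95% interval of -0.63 to 0.34, or -0.01 without yellow mutant library 1. The row junb 110538479 had 8.29, 18 and 14 FPKM in the yellow mutant libraries, against 11.8, 16.8 and 14.7 FPKM in the wild-type libraries. Its highest value was in yellow mutant library 2, and its log2 difference of -0.14 (95% interval -0.77 to 0.48) turned to 0.14 without yellow mutant library 1.

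**Figure D2:**
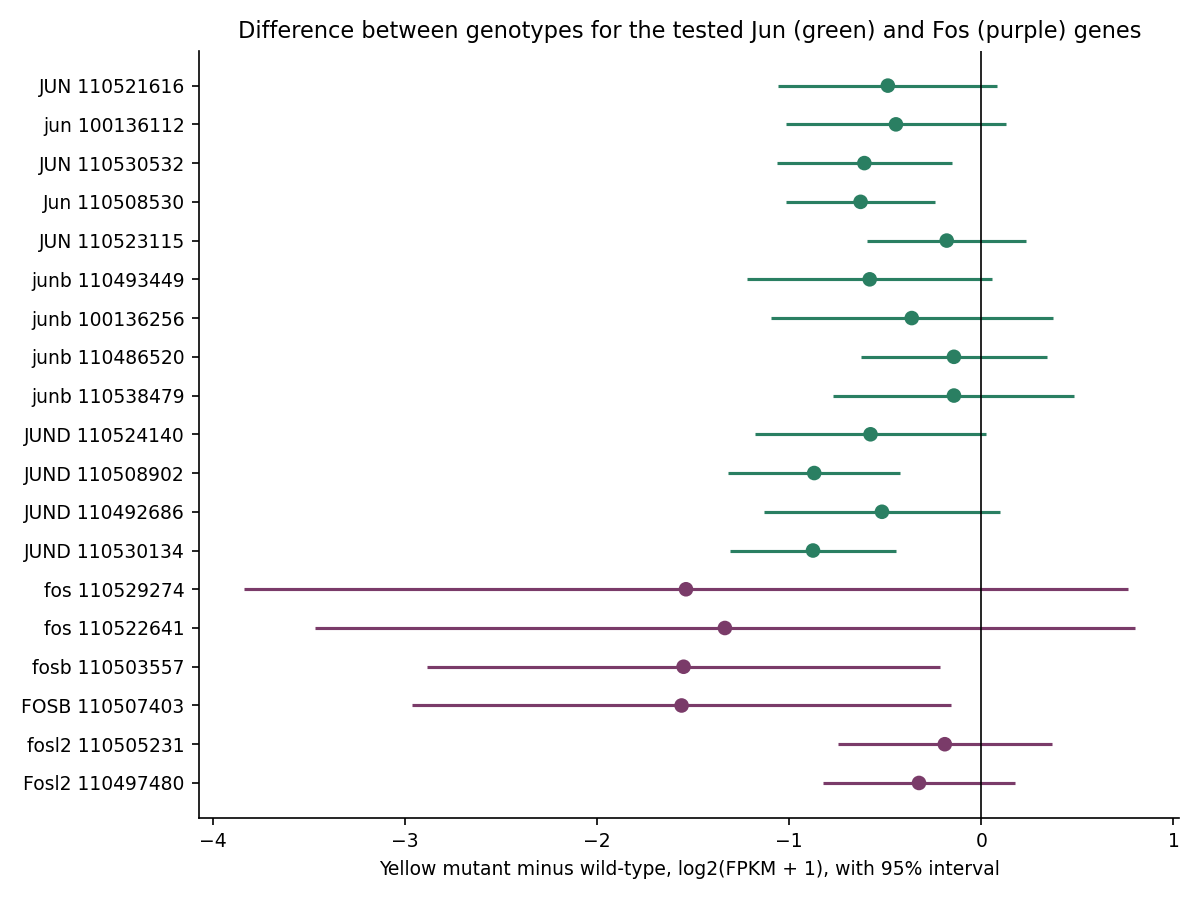
Difference of yellow mutant minus wild type in log2(FPKM + 1) for the 19 tested members, with 95% intervals from limma; Jun genes are green and Fos genes purple. All points lie left of 0, the fos intervals are the widest, and 6 intervals do not reach 0.

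The fos genes encode c-Fos, in mammals the classic immediate early protein, whose mRNA appears within minutes of a stimulus and then disappears. The 2 abundant copies varied more over the 6 libraries than any other tested member. The row fos 110529274 had 1.36, 17.9 and 13.1 FPKM in the yellow mutant libraries, against 8.28, 42.9 and 36.7 FPKM in the wild-type libraries. Both libraries numbered 1 were low, yellow mutant library 1 by far the lowest, and the ranges overlapped because wild-type library 1 lay below yellow mutant libraries 2 and 3. The mean level in the yellow mutant was 0.368 times that in the wild type, yet the log2 difference of -1.54 had an SE of 0.95 and a 95% interval of -3.84 to 0.76 (limma Benjamini-Hochberg adjusted p = 0.899). Without yellow mutant library 1 the log2 difference was -0.61, and without both libraries numbered 1 it was -1.32. The row fos 110522641 had 1.64, 16.3 and 11.1 FPKM in the yellow mutant libraries, against 6.76, 33.2 and 32.4 FPKM in the wild-type libraries. The order of the libraries was the same as in fos 110529274, and the log2 difference was -1.34 (SE 0.88, limma Benjamini-Hochberg adjusted p = 0.902), or -0.52 without yellow mutant library 1.

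The 3 other FOS rows were near the lower limit of the data and were not tested. FOS 110529275 had 0.14, 0.313 and 0.05 FPKM in the yellow mutant libraries, against 0.202, 0.793 and 0.694 FPKM in the wild-type libraries. Only wild-type libraries 2 and 3 exceeded 0.5 FPKM, and the groups overlapped. FOS 110521119 lay between 0.089 and 0.335 FPKM in the yellow mutant and between 0.211 and 0.432 FPKM in the wild type, and FOS 110497916 between 0.031 and 0.107 FPKM in the yellow mutant and between 0 and 0.133 FPKM in the wild type.

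The fosb genes encode FosB, a close relative of c-Fos that in mammals is induced by many of the same stimuli. The row fosb 110503557 had 2.18, 8.26 and 3.76 FPKM in the yellow mutant libraries, against 7.28, 28 and 13.7 FPKM in the wild-type libraries. Every wild-type library exceeded yellow mutant libraries 1 and 3, but yellow mutant library 2 was above wild-type library 1. The log2 difference was -1.55 (SE 0.55, 95% interval -2.88 to -0.22, limma Benjamini-Hochberg adjusted p = 0.772). FOSB 110507403 had 1.51, 4.3 and 3.8 FPKM in the yellow mutant libraries, against 4.24, 22.7 and 12.2 FPKM in the wild-type libraries. The overlap came down to yellow mutant library 2 being marginally above wild-type library 1. The log2 difference was -1.56 (SE 0.58, limma Benjamini-Hochberg adjusted p = 0.798). Without wild-type library 2 the log2 differences were -1.08 for fosb 110503557 and -1.06 for FOSB 110507403, and without yellow mutant library 1 they were -1.20 for fosb 110503557 and -1.23 for FOSB 110507403.

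The fosl1 and fosl2 genes encode the Fos-related antigens, which lack the strong activation domain of c-Fos and, in mammals, follow it later in a response. Both Fosl1 rows were too low to test. Fosl1 110504980 had 0.125, 0.18 and 0.104 FPKM in the yellow mutant, against 0.168, 0.378 and 0.441 FPKM in the wild type. Fosl1 110488779 had 0.051, 0.133 and 0.19 FPKM in the yellow mutant, against 0.206, 0.218 and 0.313 FPKM in the wild type. Yellow mutant values lay under the wild-type values in Fosl1 110488779 and overlapped them in Fosl1 110504980, at levels where a few fragments decide a value. The fosl2 copies were the steadiest Fos genes. The row fosl2 110505231 averaged 10.5 ± 1.66 FPKM in the yellow mutant and 12.5 ± 3.85 FPKM in the wild type (SD, n = 3 each), and Fosl2 110497480 averaged 5.87 ± 0.606 FPKM in the yellow mutant and 7.82 ± 2.38 FPKM in the wild type (SD, n = 3 each). The log2 differences of -0.19 for fosl2 110505231 (95% interval -0.75 to 0.37) and -0.32 for Fosl2 110497480 (95% interval -0.83 to 0.18) had intervals that reached past 0. Without wild-type library 2 they were -0.02 for fosl2 110505231 and -0.17 for Fosl2 110497480. In both copies wild-type library 1 was the lowest of the 6 libraries.

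Summed over copies, the Jun family had 155, 248 and 225 FPKM in the yellow mutant libraries, against 247, 368 and 291 FPKM in the wild-type libraries. Yellow mutant library 2 reached the level of wild-type library 1, and the remaining yellow mutant libraries were below all wild-type ones. The mean sum in the yellow mutant was 0.692 times that of the wild type. The Fos family sum was 21.8, 65.5 and 49.3 FPKM in the yellow mutant libraries, against 40.7, 154 and 119 FPKM in the wild-type libraries. It overlapped between the genotypes, and its mean in the yellow mutant was 0.435 times the wild-type mean. Fos genes made up 12.3, 20.9 and 18.0% of all Jun and Fos FPKM in the yellow mutant libraries, against 14.2, 29.5 and 29.0% in the wild-type libraries. The shares overlapped, wild-type library 1 being the second lowest.

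The order of the summed levels in yellow mutant skin was junb at a mean of 93.8 FPKM, jun at 65.8, jund at 49.5, fos at 20.9, fosl2 at 16.4, fosb at 7.94 and fosl1 at 0.261 FPKM. Ranges over the 3 yellow mutant libraries were apart between jund and fos, between fosl2 and fosb, and between fosb and fosl1, and the other neighbours in this order overlapped. Within every yellow mutant library junb stood above jun and jun above jund, while fos stood below fosl2 in library 1. In wild-type skin the order was junb at 123.7 FPKM, jun at 95.5, jund at 82.8, fos at 54.4, fosb at 29.4, fosl2 at 20.3 and fosl1 at 0.575 FPKM. There only the range of fosl1 was apart from that of its neighbour. Within every wild-type library jun stood above jund, jund above fos and fos above fosb, while junb stood below jun in library 1. The place of fosb above fosl2 in the wild type rested on libraries 2 and 3, since in wild-type library 1 fosb stood at 11.5 and fosl2 at 13.2 FPKM. The largest sum over the 6 libraries was 23.8 times the smallest for fos and 13.8 times for fosb, but 1.89 times for fosl2 and between 2.19 and 2.77 times for the jun, junb and jund sums.

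**Figure D3:**
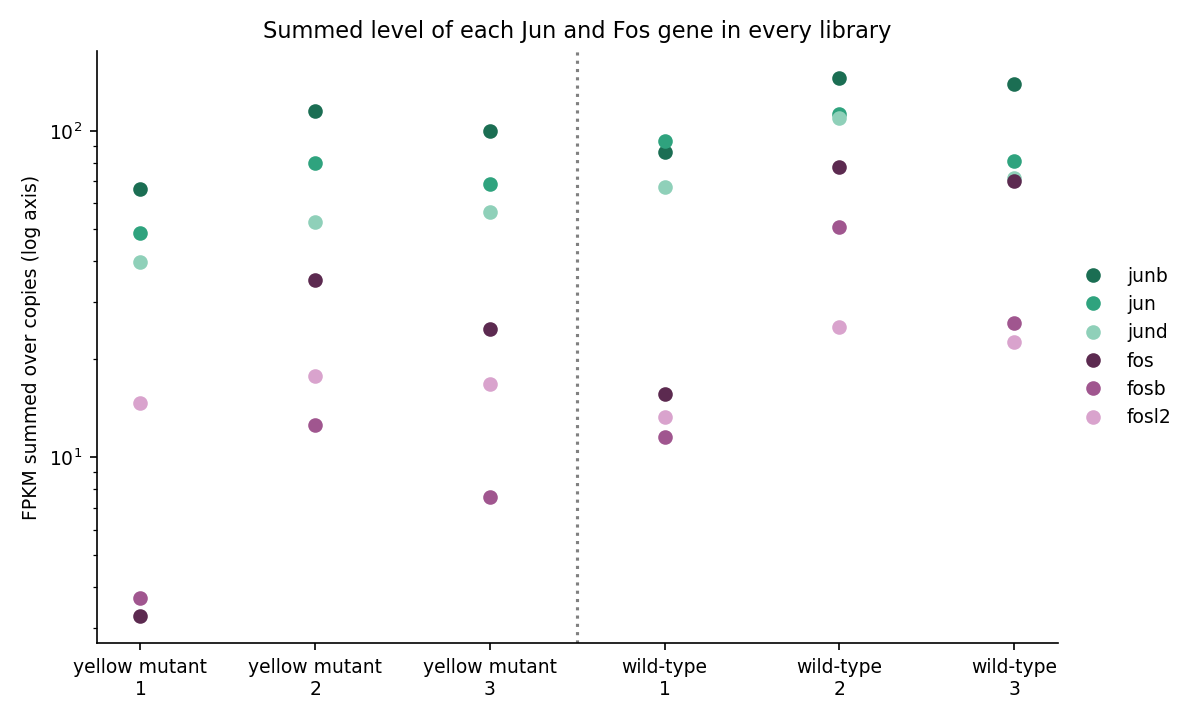
FPKM summed over all copies of each gene, on a log axis, with yellow mutant libraries left and wild-type libraries right of the dotted line; the low fosl1 sums are not drawn. The fos and fosb points spread far more between libraries than the junb, jun, jund and fosl2 points, and both are lowest in yellow mutant library 1.

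Fitted on sums over copies of each symbol, 6 sums were tested among 15519 symbols. Such sums do not depend on how reads were split between rows of 1 symbol. They can still depend on reads that were left out or given to rows of other symbols. All 6 were lower in the yellow mutant and none was called. The log2 difference was -0.71 for jund (limma Benjamini-Hochberg adjusted p = 0.74), -0.55 for jun and -1.67 for fosb, and the 95% intervals of these 3 lay below 0. For junb it was -0.40, for fos -1.52 and for fosl2 -0.25, each with a 95% interval that reached past 0.

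The copies of 1 gene shared neighbouring genes, as RefSeq lists them for the assembly USDA_OmykA_1.1, within 3 genes on either side. All 4 jund copies lay near rab3a and upf1. The junb copies fell into a pair beside wiz and ptger1 (100136256 and 110493449) and a pair beside hook2 and mast1 (110486520 and 110538479). The jun copies fell into a pair beside faslg and prdx6 (110521616 and 100136112) and a pair beside tada1 and angptl1 (110530532 and 110508530). The fifth, JUN 110523115, shared hook3 and rnf170 with june 110536876, a jun-like gene outside the rule that had 0.742, 1.46 and 1.35 FPKM in the yellow mutant, against 0.75, 2.39 and 1.5 FPKM in the wild type.

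The shares that pairs of copies took of their gene overlapped between the genotypes. The tada1 and angptl1 pair held 40.4, 34.5 and 38.3% of the 4 abundant jun copies in the yellow mutant libraries, against 41.7, 39.0 and 40.7% in the wild-type libraries. It contains both jun copies whose genotypes did not overlap, and its share overlapped between the genotypes in yellow mutant library 1 alone. The wiz and ptger1 pair held 68.9, 67.3 and 72.0% of junb in the yellow mutant libraries, against 70.4, 75.4 and 76.6% in the wild-type libraries. These ranges overlapped too, in yellow mutant library 3. The shares stayed within 34.5 to 41.7% and 67.3 to 76.6%, while the sums over copies differed 2.31-fold for jun and 2.19-fold for junb between the lowest and the highest library.

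At 2 places 2 fos copies lay side by side, with tmed10 on one side and a Jdp2 gene followed by batf on the other. Jdp2 and batf are also basic leucine zipper genes, whose products pair with Jun proteins. In both places the copy next to tmed10 was the abundant one (110529274 and 110522641) and the copy next to Jdp2 was the low one (110529275 and 110521119). Among the 5 rows, the 2 abundant copies held between 92 and 98.7% of the fos sum. In mammals the Jdp2 product is known as a repressor of AP-1 activity. Jdp2 110515018 had 1.39, 1.61 and 1.56 FPKM in the yellow mutant, against 1.83, 6.18 and 4.28 FPKM in the wild type, with no overlap and a log2 difference of -0.92 (limma Benjamini-Hochberg adjusted p = 0.755). Jdp2 110522639 had 4.67, 4.74 and 3.89 FPKM in the yellow mutant, against 4.44, 8.72 and 6.39 FPKM in the wild type, and its genotypes overlapped. A fos-like row outside the rule, FOS-FOX 110522531, which the table describes as fos-related antigen 2, had 0.2, 0.379 and 0.295 FPKM in the yellow mutant, against 0.515, 1.52 and 0.957 FPKM in the wild type.

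The members moved together from library to library. Over the 6 libraries, the Pearson correlation of log2(FPKM + 1) was positive for all 171 pairs of tested members, with a median of 0.816 and a range of 0.377 to 0.997. Between a Jun and a Fos gene the median was 0.807, and among the 4 tested fos and fosb copies it was at least 0.875. After each genotype's mean was removed, 170 of 171 pairs remained positive and the median was 0.737. All pairs share the same 6 libraries and their scaling, so these values are a description. The mean profile of the members, as log2 deviation from each row's mean, was -0.84, 0.01 and -0.18 in yellow mutant libraries 1, 2 and 3, against -0.12, 0.75 and 0.39 in wild-type libraries 1, 2 and 3. Libraries 2 of both genotypes were thus the highest of their genotype, and libraries numbered 1 of both were the lowest in this mean.

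The genes whose pattern was most like the mean member profile were sought among rows of at least 5 FPKM on average. They were ddit4 118966075 (r = 0.988 over 6 libraries), Klf4 110536955 (r = 0.984), Klf4 110523966 (r = 0.982), klf2a 110524203 (r = 0.972), zfp36l2-B 110507452 (r = 0.97) and egr1 110488587 (r = 0.968). Klf4 110536955 encodes a Krüppel-like transcription factor and had 7.47, 18.7 and 17.7 FPKM in the yellow mutant, against 14.3, 46.1 and 35.5 FPKM in the wild type. The row egr1 110488587, a zinc finger gene that in mammals is an immediate early gene, had 4.51, 14.5 and 8.19 FPKM in the yellow mutant, against 11.7, 23.9 and 15.5 FPKM in the wild type. In both, yellow mutant library 1 was the lowest and wild-type library 2 the highest, an order favoured by choosing genes for likeness to the member profile. After the genotype means were removed, the 6 most alike were Neo1, Dyrk1a, acin1b, CHD9, ddit4 and Klf4 110536955, with r between 0.976 and 0.993. Of these, Neo1 110506963 had 6.28, 8.24 and 7.9 FPKM in the yellow mutant, against 6.08, 7.94 and 7.38 FPKM in the wild type, with overlapping ranges.

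**Figure D4:**
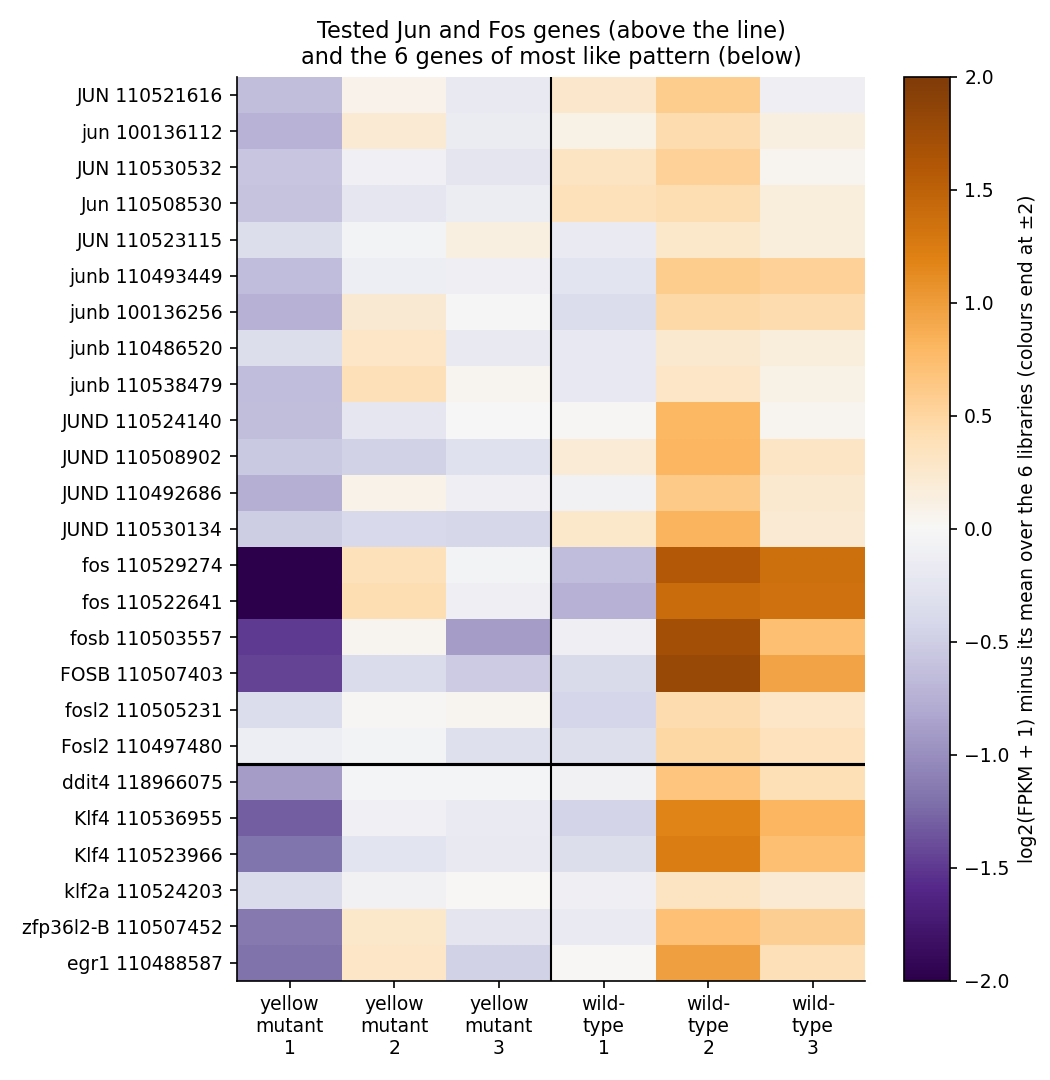
Log2(FPKM + 1) minus each row's mean over the 6 libraries, with orange for higher and purple for lower, for the 19 tested members above the line and the 6 genes of most similar pattern below it. The purple column of yellow mutant library 1 and the orange column of wild-type library 2 run through both blocks, deepest in fos and fosb. The 6 genes below the line were chosen for this pattern.

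Other immediate early genes were listed to see how far the lower levels reached. Of 80 tested rows, 54 were lower and 26 higher, with a median log2 difference of -0.27. None was called. At an unadjusted limma p under 0.05, 18 were lower and 1 was higher, beside backgrounds of 2.59% lower and 3.41% higher, and without wild-type library 2 the lower count was 9, beside 1.28% of all rows. Without overlap, 17 were lower and 4 higher, beside backgrounds of 4.92% lower and 6.07% higher. The row egr1 110537802 had 1.5, 3.75 and 2.08 FPKM in the yellow mutant libraries, against 5.41, 8.57 and 6 FPKM in the wild-type libraries. The 3 yellow mutant libraries were all below the wild-type ones, and the log2 difference was -1.18 (limma Benjamini-Hochberg adjusted p = 0.426). The row ccn1 110524713, which encodes a secreted matricellular protein, had 24.3, 23.5 and 24.4 FPKM in the yellow mutant, against 35.3, 46.3 and 37.9 FPKM in the wild type, also without overlap. Of the list, 1 egr1 row and 3 npas4 rows were at 0 in all libraries.

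The dual-specificity phosphatases that switch off MAP kinases gave 13 rows lower and 4 higher of 17 tested, with a median log2 difference of -0.28. None was called. By the authors' deposited FDR, 2 of the 23 rows of this list were lower under 0.05 and none was higher, beside 0.0969% of all rows lower. At an unadjusted limma p under 0.05, 6 were lower and none was higher, beside backgrounds of 2.59% lower and 3.41% higher. The 2 DUSP5 rows, 110495099 and 110516132, hold identical values and are counted as 2 rows here and among the immediate early genes; neither is one of the 6. The row dusp1 110504465, itself an immediate early gene in mammals and part of both lists, had 2.35, 3.53 and 3.96 FPKM in the yellow mutant libraries, against 4.82, 9.08 and 7.82 FPKM in the wild-type libraries, and the log2 difference was -0.93 (limma Benjamini-Hochberg adjusted p = 0.561). The row dusp8a 110492563 had 2.06, 2.05 and 2.5 FPKM in the yellow mutant, against 4.22, 5.22 and 3.34 FPKM in the wild type, again without overlap.

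The genes upstream of AP-1 were spread about 0. Among the MAP kinases and the kinases above them, 28 rows were lower and 39 higher of 67 tested, with a median log2 difference of 0.01, and 1 row passed an unadjusted limma p under 0.05, beside backgrounds of 2.59% lower and 3.41% higher. That row, MAP3K7 110522122, a kinase that relays cytokine signals, had 3.6, 3.97 and 3.45 FPKM in the yellow mutant, against 3.07, 2.53 and 2.75 FPKM in the wild type. Among transcription factors known in mammals to act on the fos and jun promoters, such as serum response factor and its partners, 15 rows were lower and 23 higher of 38 tested, with a median of 0.02. The smallest limma Benjamini-Hochberg adjusted p there was 0.908, for MRTFB 110485173, a serum response factor cofactor.

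Other basic leucine zipper genes, of the ATF, BATF, JDP and MAF groups, were listed because the products of some can replace Fos beside Jun. They gave 21 rows lower and 8 higher of 29 tested, with a median log2 difference of -0.08. Beside the same backgrounds, the 3 with an unadjusted limma p under 0.05 were Jdp2 110515018, described above, and 2 more. The row atf3 110529630, a stress-induced repressor in mammals, had 2, 1.12 and 1.48 FPKM in the yellow mutant, against 2.13, 4.68 and 4.14 FPKM in the wild type (log2 difference -0.85, limma Benjamini-Hochberg adjusted p = 0.656). ATF2 110501941 had 1.4, 1.99 and 2.3 FPKM in the yellow mutant, against 2.96, 2.91 and 5.91 FPKM in the wild type. All 3 were without overlap, and 1 row of the list, mafb 110527907, was without overlap in the other direction. It had 9.08, 9.04 and 6.87 FPKM in the yellow mutant, against 6.7, 5.96 and 6.51 FPKM in the wild type. Of all rows tested, 4.92% were lower and 6.07% higher without overlap. Other copies of atf3, atf2 and jdp2 overlapped between the genotypes. Their log2 differences were -0.23 for ATF3 110522249, 0.02 for atf2 110520124, -0.20 for JDP2 110497917 and 0.22 for jdp2a 110505550.

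Genes known in mammals as AP-1 targets went both ways. Of 24 tested rows 11 were lower and 13 higher, with a median log2 difference of 0.03. At an unadjusted limma p under 0.05, 5 were lower and 4 higher, beside backgrounds of 2.59% lower and 3.41% higher. By the authors' deposited FDR, 1 of the 30 rows of this list was lower under 0.05 and none was higher. The row vegfab 110522314, a vascular growth factor gene, had 1.79, 2.06 and 2.51 FPKM in the yellow mutant libraries, against 3.37, 3.69 and 3.96 FPKM in the wild-type libraries. The groups did not overlap, and the log2 difference was -0.59 (limma Benjamini-Hochberg adjusted p = 0.48). In the other direction, hmox1a 110486536, which encodes a haem-degrading enzyme, had 1.68, 1.61 and 1.78 FPKM in the yellow mutant, against 0.85, 1.17 and 0.753 FPKM in the wild type.

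Among genes for AP-1 turnover and for cofactors that bind DNA beside it, 38 rows were lower and 25 higher of 63 tested, with a median of -0.02. NFATC1 110518416, a calcium-regulated factor that binds beside AP-1 in mammals, had 9.39, 9.33 and 7.09 FPKM in the yellow mutant libraries, against 22.7, 23.5 and 25.6 FPKM in the wild-type libraries. The wild-type values were all more than 2 times the yellow mutant values. The log2 difference was -1.39 (limma Benjamini-Hochberg adjusted p = 0.0551), just outside the threshold. In the authors' deposited table, NFATC1 110518416 had a log2 fold change of -1.48 with an FDR of 0.000141. Its second copy, nfatc1 110496069, had 1.94, 2.53 and 2.14 FPKM in the yellow mutant, against 3.27, 3.21 and 2.55 FPKM in the wild type.

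**Figure D5:**
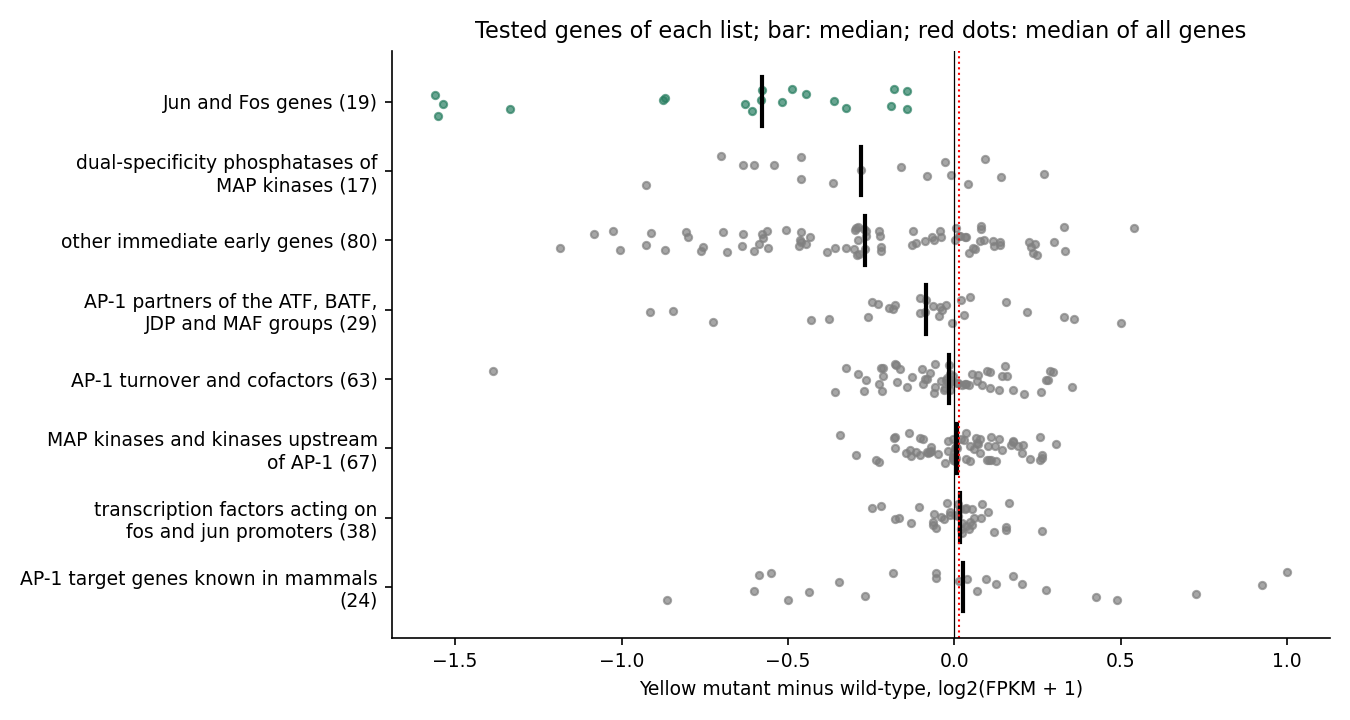
Difference of yellow mutant minus wild type in log2(FPKM + 1) for every tested row of the Jun and Fos genes (green) and of 7 related lists (grey), with the number tested in brackets, a black bar at each median and the median of all rows as red dots. The Jun and Fos bar lies at -0.58, the phosphatase and immediate early bars lie at -0.28 and -0.27, and the bars of the kinases, promoter factors and target genes lie near 0.

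Markers of cell types that skin can hold were read in the same libraries. All 12 tested rows of the mural and smooth muscle list (acta2, myh11, tagln, cnn1 and rgs5) were lower in the yellow mutant, as 47% of all rows tested were, and 8 of them were so at an unadjusted limma p under 0.05, beside 2.59% of all rows. The summed level was 253 to 281 FPKM in the yellow mutant, against 305 to 397 FPKM in the wild type. All 10 endothelial rows were lower, 3 of them at that p, with sums of 43.1 to 79.2 FPKM in the yellow mutant and 63.6 to 102.5 FPKM in the wild type. Of 16 fibroblast rows 14 were lower, 0 of them at that p, and the 2 higher rows both passed it. The fibroblast sums were 26958 to 33237 FPKM in the yellow mutant and 29746 to 38221 FPKM in the wild type. In the other direction, all 15 keratinocyte rows were higher, 1 of them at that p, beside 3.41% of all rows higher at it. The keratinocyte sums were 1383 to 1856 FPKM in the yellow mutant and 945 to 1359 FPKM in the wild type. Of 10 melanophore rows 9 were higher, 6 of them at that p, beside the same 3.41%. The melanophore sums were 429 to 612 FPKM in the yellow mutant and 356 to 381 FPKM in the wild type, and 2 tyrp1 rows were at 0. Muscle markers summed to 1206 to 3186 FPKM in the yellow mutant and 871 to 2479 FPKM in the wild type, and erythrocyte markers to 254 to 376 FPKM in the yellow mutant and 191 to 563 FPKM in the wild type. The 2 macrophage rows tested were lower and the 4 T cell rows higher. The part of these cell types in the Jun and Fos values was not tested.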

How the data were processed

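The 6 RNA-Seq libraries were grouped by the genotype in the labels, 3 yellow mutant and 3 wild type. The FPKM values were made and deposited by the authors. Bowtie2 2.2.8 and TopHat2 2.1.1 are named, per the submitters' processing notes. The genome build and the rule for reads that fit several copies were not given in those sources. The authors' deposited table also holds log2 fold changes and FDR values, which are adjusted p-values. All 41894 rows with an NCBI identifier matched the RefSeq gene table, used only for names and neighbours.

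Rows of at least 0.5 FPKM in at least 3 of 6 libraries were fitted as log2(FPKM + 1) by genotype with limma 3.58.1 in R 4.3.3 (trend and robust moderation), with Benjamini-Hochberg adjustment over 27268 rows and a threshold of 0.05. A fold change on this scale understates that of low genes. Intervals are 95%. Named list genes are the 3 with the smallest p, or rows without overlap, apart from 1 that is not reported here; genes of like pattern are the 6 highest correlations with the members' mean profile. The members and lists were chosen with earlier results of these data known. Another 16 ways of processing the values were tried, 1 of them chosen after seeing the data. The labels name no batch. Promoter and protein sequences were not analysed here.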

Additional observations from a re-analysis of the deposited data

How the results depend on the processing

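No Jun or Fos gene was called in either direction under any of the 16 alternatives, among which the smallest limma Benjamini-Hochberg adjusted p was 0.0744, with the replicate number as a block. Over the whole table, 9 rows were called in the fit reported, 15 with copies summed, 0 with relative depth as a covariate, 0 with the replicate block and 0 without both libraries numbered 1, an alternative chosen after seeing the data. Leaving out single libraries gave 0 to 14. The 6 members lower at an unadjusted p became 3 of 6 sums with copies summed, beside 2.32% of all sums. They became 14 with relative depth as a covariate, beside 2.98% of all rows, and 11 with the replicate block, beside 2.93%. Leaving out 1 library gave 3 to 13, while the share of all rows was 1.28% to 4.22%. The 5 members without overlap became 2 sums with copies summed, beside 4.56% of all sums. They became 15 without both libraries numbered 1, beside 19.97% of all rows. Without single libraries the count was 5 to 15, and the share of all rows was 7.19% to 13.2%. The count of 15 came without wild-type library 1, beside 9.82%. The share of 13.2% came without yellow mutant library 1, where the count stayed at 5. The median log2 difference stayed between -0.76, with relative depth as a covariate, and -0.34, without wild-type library 2. Single members kept their direction in 281 of 283 refits. The exceptions were both junb 110538479, which ran between -0.37 and 0.14 without single libraries (the 0.14 without yellow mutant library 1) and stood at 0.01 without both libraries numbered 1. Apart from copies summed, which tests fewer rows, the cause was not tested. NFATC1 110518416 was called with a filter of 5 FPKM and without trend and robust moderation.

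Over all rows tested, correlations of same-numbered libraries' deviations from their genotype means were 0.115, -0.213 and 0.158 for numbers 1, 2 and 3. In the members alone, the mean profile after removing genotype means was -0.50, 0.35 and 0.16 in yellow mutant libraries 1, 2 and 3. In wild-type libraries 1, 2 and 3 it was -0.46, 0.41 and 0.05. The labels do not say whether shared numbers mark pairs, and 3 libraries per genotype are too few to tell. Absolute depth is unknown, so no counting error is given for the low FOS and Fosl1 rows.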
